A study of Mus musculus with 2 samples.

Results

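The DNA replication machinery is the set of proteins that opens the chromosome, copies both strands and seals the new DNA during S phase, and its transcripts were compared between primary chondrocytes of control and *Myl3*-KO mice. The genes were selected by the pathway column of the deposited table, in which 35 of 22156 rows carry the KEGG annotation DNA replication. The set was picked with the counts of both libraries known, so all of its ratios are given as a description. The libraries hold RNA of primary chondrocytes, the cells of cartilage, from newborn mice on the C57BL/6 J background, and each genotype, control and *Myl3*-KO, was sequenced as 1 library. The labels give rib cartilage as the tissue, whereas the methods of the study name rib and articular cartilage for such cultures. *Myl3*-KO mice carry *Col2a1*-Cre and homozygous floxed *Myl3*, so that Cre is driven by the promoter of a cartilage collagen, and the methods describe the controls as floxed littermates without Cre, whereas the labels call them WT. The floxed line was raised from an embryonic stem cell clone, no treatment was given to either group, and neither source says whether cells of several animals were pooled. Since neither genotype was repeated, a difference between genotypes cannot be told apart from one between cultures, and no p-value was computed.

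Before S phase the origin recognition complex, CDC6 and CDT1 load rings of MCM2 to MCM7 onto DNA, and these rings become the core of the replicative helicase once kinases and further factors activate them. DNA polymerase alpha with its primase lays down RNA-DNA primers, polymerase epsilon extends the leading strand, and polymerase delta extends the lagging strand. Replication factor C (RFC) loads the sliding clamp PCNA, replication protein A (RPA) covers exposed single strands, and FEN1, DNA2, RNase H2 and DNA ligase 1 turn Okazaki fragments into a continuous strand. Many genes of this machinery are textbook targets of E2F transcription factors, which are released from RB-family repressors when cells enter the cycle. Chondrocytes divide in the growth plate and in monolayer culture, and most divide little in mature cartilage.

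Promoters, taken from RefSeq on GRCm38.p6 as the 250 bases before and the 50 bases after a start site, were found for 29 of the 35 genes, which had 35 promoters in all. Any of the letters TTTCCCGC, TTTCGCGC, TTTGCCGC and TTTGGCGC, read on either strand and allowed to overlap, was taken as an E2F motif. It was present in 12 of the 35 promoters (34.3%), against 744 of 32851 RefSeq promoters of the same length (2.26%). Counted by gene, where any promoter with the motif was enough, 11 of 29 replication genes (37.9%) held it, against 704 of 27025 genes (2.605%). These were *Mcm3*, *Mcm5*, *Mcm6*, *Mcm7*, *Rfc3*, *Pole2*, *Pole4*, *Pold1*, *Pold3*, *Pola1* and *Lig1*. The motif stood at 3 places in *Mcm6* and at 2 each in *Mcm3*, *Mcm5*, *Mcm7* and *Rfc3*. Of these promoters, 6 are shown 5′ to 3′, with the E2F letters of either strand in capitals: those of the 4 helicase genes that hold the motif, and those of *Pole4* and *Lig1*, which had the lowest and the highest ratio between the libraries among all 35 genes before a correction for GC content and transcript length.
Mcm5, chr8:75109259-75109558 (+ strand): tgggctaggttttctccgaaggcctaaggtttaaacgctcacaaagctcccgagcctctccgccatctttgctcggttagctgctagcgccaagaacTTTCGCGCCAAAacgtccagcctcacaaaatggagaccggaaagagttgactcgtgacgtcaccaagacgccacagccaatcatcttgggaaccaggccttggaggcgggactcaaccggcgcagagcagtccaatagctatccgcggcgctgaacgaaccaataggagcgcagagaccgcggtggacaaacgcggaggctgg
Mcm6, chr1:128359656-128359955 (- strand): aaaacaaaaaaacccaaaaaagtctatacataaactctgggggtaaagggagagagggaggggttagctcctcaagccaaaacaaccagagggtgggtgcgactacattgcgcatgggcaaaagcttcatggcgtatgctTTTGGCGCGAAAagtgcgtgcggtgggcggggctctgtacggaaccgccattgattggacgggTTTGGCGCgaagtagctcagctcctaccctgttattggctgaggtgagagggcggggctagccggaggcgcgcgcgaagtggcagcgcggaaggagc
Mcm7, chr5:138171834-138172133 (- strand): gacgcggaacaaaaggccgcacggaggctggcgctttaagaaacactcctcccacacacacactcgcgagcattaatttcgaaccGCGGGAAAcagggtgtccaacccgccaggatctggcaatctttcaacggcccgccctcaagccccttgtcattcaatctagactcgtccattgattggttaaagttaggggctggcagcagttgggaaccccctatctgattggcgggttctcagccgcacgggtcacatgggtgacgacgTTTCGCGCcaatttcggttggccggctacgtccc
Mcm3, chr1:20820263-20820562 (- strand): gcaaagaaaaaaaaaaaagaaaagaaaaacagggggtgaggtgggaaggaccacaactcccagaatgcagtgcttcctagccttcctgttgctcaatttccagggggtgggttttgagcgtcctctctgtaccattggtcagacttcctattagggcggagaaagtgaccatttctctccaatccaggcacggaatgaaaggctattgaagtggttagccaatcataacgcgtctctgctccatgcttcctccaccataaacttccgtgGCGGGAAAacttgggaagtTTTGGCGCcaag
Pole4, chr6:82652825-82653124 (- strand): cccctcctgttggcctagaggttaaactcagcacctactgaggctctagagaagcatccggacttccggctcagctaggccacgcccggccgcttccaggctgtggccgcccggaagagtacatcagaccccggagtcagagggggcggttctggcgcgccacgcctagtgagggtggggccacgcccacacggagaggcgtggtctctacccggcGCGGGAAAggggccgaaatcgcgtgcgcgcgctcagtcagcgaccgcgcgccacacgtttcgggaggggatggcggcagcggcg
Lig1, chr7:13278576-13278875 (+ strand): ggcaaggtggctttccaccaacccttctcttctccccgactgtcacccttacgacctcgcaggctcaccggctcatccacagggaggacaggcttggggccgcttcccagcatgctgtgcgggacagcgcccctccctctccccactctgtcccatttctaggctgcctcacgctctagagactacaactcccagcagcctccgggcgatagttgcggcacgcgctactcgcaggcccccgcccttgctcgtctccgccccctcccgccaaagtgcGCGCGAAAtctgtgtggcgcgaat

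In the *Mcm5* promoter the capitals form a run of 2 overlapping motifs, one on each strand, which begin at positions -153 and -149, counted from 0 at the start site. In *Mcm6* a like pair begins at -110 and -106 and a further motif at -47. In *Mcm3* both motifs lie downstream of the start site, at 19 and 38, and in *Mcm7* 1 begins at -165 and 1 at 16. The *Pole4* promoter shown has 1 motif, at -34, and that of *Lig1* has 1, at 26. A further, overlapping promoter of *Pole4* holds the same site, there at -43, so this site enters the promoter count more than once. The other promoters of *Lig1* and *Mcm7* hold no E2F letters. CCAAT, the core of NF-Y sites, was present in 17 of the 35 promoters (48.6%), against 37.4% of all promoters. TTTGAA, the letters of the cell cycle homology region found in G2/M genes, was present in 4 (11.4%), against 17.9%. The median log2 ratio, *Myl3*-KO over control, was -0.18 over the 11 genes with the E2F letters and -0.20 over the 18 without. For CCAAT it was -0.16 over 16 genes and -0.18 over 13, and for TTTGAA -0.30 over 4 genes and -0.17 over 25, differences that were not tested. A match of letters is a description and not a bound site, and *Mcm4*, *Pole*, *Prim2*, *Rfc2*, *Rnaseh1* and *Rnaseh2b* had no entry in the promoter table.

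**Figure D1:**
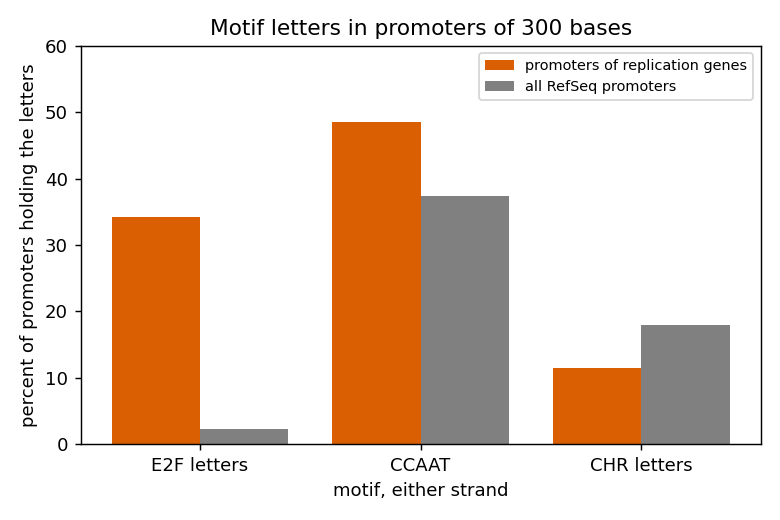
Bars give the percent of promoters, each 300 bases long, that hold the letters of the E2F, CCAAT or CHR (cell cycle homology region) motif on either strand, for the 35 promoters of replication genes and for all 32851 RefSeq promoters. The E2F letters were present in 34.3% of the former and 2.26% of the latter.

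The authors deposited an expected count, which is an estimated number of reads, and an FPKM, which scales the reads by gene length and library, for each gene. The control library totalled 17612434.91 expected counts and the *Myl3*-KO library 13477976.98, where 3 counts, used as the floor, are worth 0.170 and 0.223 CPM, the count scaled to its library total. Both libraries had 0 counts and 0 FPKM of *Myl3*, so the deletion could not be checked from these values. Of the chondrocyte markers, *Acan*, *Cnmd*, *Hapln1*, *Matn1* and *Matn3* were at 0 in both libraries (5 of 10), 3 of 10 had enough counts to be tested, and the list summed to 57.8 and 45.2 CPM. The collagen gene *Col2a1*, named after its values were seen, had 30 and 27 counts, and *Sox9*, a transcription factor of chondrocytes, had 866 counts (49.2 CPM) in control and 480 counts (35.6 CPM) in *Myl3*-KO cells. Markers of fibroblasts were abundant, with a summed level of 15461 CPM in the control library and 17531 CPM in the other, most of it from the collagen gene *Col1a2*, and *Thy1* was at 0. The most abundant, *Col1a2* and *Col3a1*, had log2 ratios of 0.22 (0.22 to 0.23) and 0.012 (-0.012 to 0.035). Over the 7 fibroblast markers tested the median was 0.012. Some less abundant markers differed by more than any replication gene, and not in one direction. *Dcn*, a matrix proteoglycan, had 631 counts (35.8 CPM) in control and 155 counts (11.5 CPM) in *Myl3*-KO cells, a log2 ratio of -1.64 (-1.90 to -1.38). *Pdgfra*, a growth factor receptor, had 120 and 140 counts, a ratio of 0.61 (0.25 to 0.97). *Lum*, a proteoglycan named after its values were seen, had 272 and 81 counts, a ratio of -1.36 (-1.74 to -0.999). The labelled cell type was thus not reflected in most of its defining markers, and the part of this in the ratios of the replication genes was not tested. Markers of immune cells summed to 1.88 and 2.08 CPM, those of endothelial cells to 7 and 12 counts, those of skeletal muscle to 5 and 1 counts and those of erythroid cells to 0 and 1 count.

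Transcripts of the replication machinery were slightly less abundant in the *Myl3*-KO library, with 31 of 35 genes (88.6%) below a log2 ratio of 0, against 47.3% of the 12431 genes tested, which are those with 10 counts or more in the libraries together. All 35 replication genes passed this limit. Summed over the 35 genes, 71692 counts (4071 CPM) in control stood against 49233 counts (3653 CPM) in *Myl3*-KO cells, a log2 ratio of -0.16 (-0.17 to -0.14). The interval is a 95% Clopper-Pearson interval, as for all ratios given here, and covers counting error only, not the difference between animals or cultures. The median log2 ratio of the 35 genes was -0.18, against 0.02 over all genes tested, and single genes ranged from -0.44 for *Pole4* to 0.13 for *Lig1*. After a correction for GC content and transcript length, which takes off the median of genes alike in both, the ends were -0.40 for *Fen1* and 0.093 for *Pola2*, with *Pole4* at -0.31 and *Lig1* at 0.037. *Lig1*, *Pold1*, *Pole* and *Pola2* stood above 0, and with TMM factors, another scaling, *Pola2* stood below it, at -0.0083. In bulk RNA, fewer dividing cells and less replication RNA per cell cannot be told apart.

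Most genes of the set stood below 0, and none reached 1.5-fold. A level at least 1.2-fold lower was seen in 10 of the 35 genes (28.6%), against 13.1% of all genes tested. These were *Pole4*, *Fen1*, *Pold2*, *Rfc5*, *Rpa3*, *Prim2*, *Rpa2*, *Pcna*, *Pola1* and *Rnaseh2b*. A level at least 1.2-fold higher was seen in 0 of 35, against 19.1% of all genes. At 1.5-fold, 0 genes of the set were lower, against 2.9% of all genes, and 0 were higher, against 6.17%. The counting interval lay below 0 for 26 of the 35 genes, against 20.1% of all genes tested, and above 0 for 2, *Pole* and *Lig1*, against 22.2%. Among the 10485 genes with 100 counts or more in all, which include all 35, those shares were 23.3% and 24.4%. Of these 10485 genes, 10.7% were at least 1.2-fold lower and 14.7% at least 1.2-fold higher. At 1.5-fold, 81 of them were lower and 253 higher. The counting interval held 0 for the other 7 genes of the set. After the correction for GC content and length, it lay below 0 for 20 genes, against 19.5% of the 12199 genes that could be corrected, and above 0 for 0. Just inside the 1.2-fold limit was *Rnaseh2b*, 1.22-fold lower, and just outside it was *Rfc4*, 1.19-fold lower. Because the set was picked with these counts known, nothing is read from its shares beside those of all genes.

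**Figure D2:**
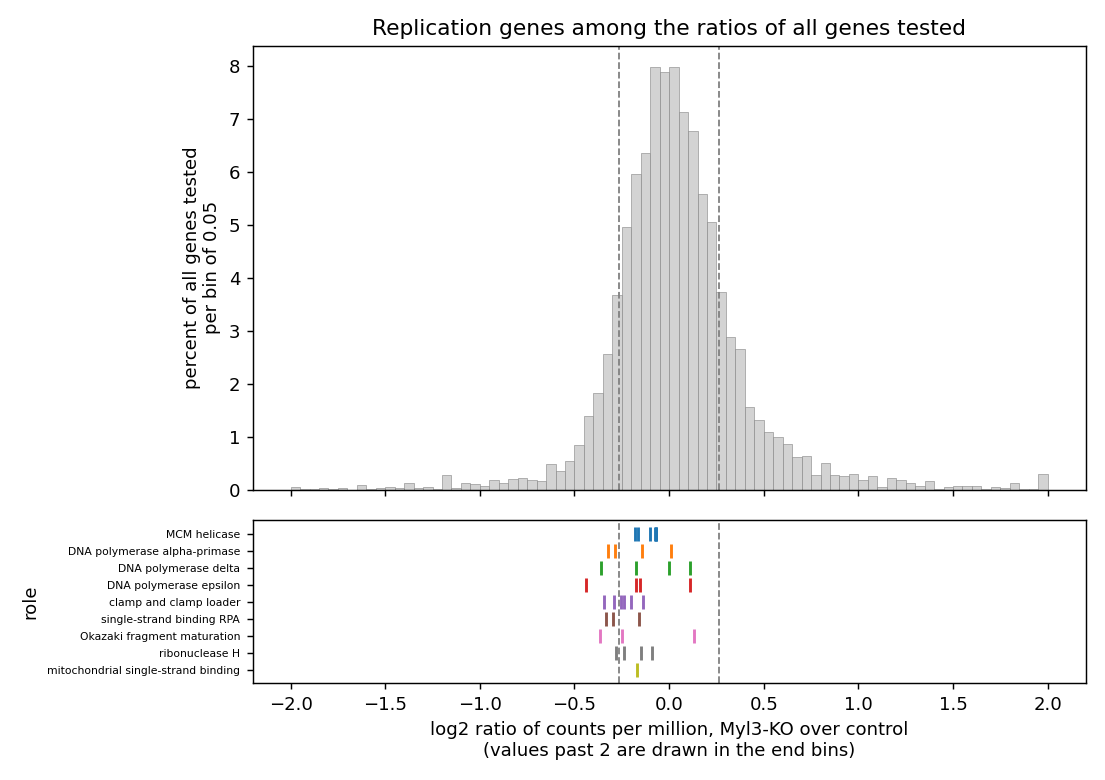
The histogram gives the percent of the 12431 genes tested in each bin of 0.05 of the log2 ratio of CPM, *Myl3*-KO over control, and each tick below it is 1 of the 35 replication genes, in a line for its role. Dashed lines mark 1.2-fold in either direction. The ticks lie between -0.44 and 0.13, with 10 beyond the lower line and 0 beyond the upper one.

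The 6 subunits of the MCM helicase were among the most abundant members and differed little between the libraries. Summed over the ring, 26120 counts (1483 CPM) in control stood against 18510.4 counts (1373 CPM) in *Myl3*-KO cells, a log2 ratio of -0.11 (-0.14 to -0.084). All 6 were below 0 and none reached 1.2-fold. *Mcm5* had 2959 counts (168 CPM) in control and 2000 counts (148 CPM) in *Myl3*-KO cells, a log2 ratio of -0.18 (-0.26 to -0.10). *Mcm7* had 6431.72 counts (365 CPM) in control and 4398.43 counts (326 CPM) in *Myl3*-KO cells, a ratio of -0.16 (-0.22 to -0.11). These were the lower ratios of the ring by count, whereas by FPKM *Mcm7* was at -0.098 and *Mcm6* at -0.10. *Mcm6* had 5128 counts (291 CPM) in control and 3660 counts (272 CPM) in *Myl3*-KO cells, a ratio of -0.10 (-0.16 to -0.039). *Mcm4* had 3803 counts (216 CPM) in control and 2762 counts (205 CPM) in *Myl3*-KO cells, a ratio of -0.075 (-0.15 to -0.0044). In *Mcm2* the library values were 4016 and 2927 counts, with a ratio of -0.070 (-0.14 to -0.0013). The 4 subunits *Mcm2*, *Mcm3*, *Mcm4* and *Mcm6* lay close together before the correction for GC content and length. The interval of *Mcm3*, with 3782 and 2763 counts, held 0 at -0.067 (-0.14 to 0.0042). After the correction the 4 ran from -0.13 for *Mcm2* to -0.026 for *Mcm4*. The interval of *Mcm4* (-0.097 to 0.045) then held 0, and that of *Mcm3*, at -0.13 (-0.20 to -0.060), lay below 0. Of the transcript sequence of *Mcm7*, on chromosome 5 from 138164583 to 138172422 of GRCm38, 47.6% is shared with other genes when read in words of 31 bases, most of it with the pseudogene *Gm5487*, and *Mcm7* overlaps *Ap4m1* and *Cops6* on the opposite strand. Its counts were not whole numbers, which is how reads divided between genes appear in expected counts.

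The 6 genes of the clamp and its loader had a median ratio of -0.25, beside -0.088 for the helicase. All 6 counting intervals lay below 0, against 20.1% of all genes tested and 23.3% of those with 100 counts or more. After the correction for GC content and length the medians were -0.15 and -0.13, and the intervals of *Rfc3*, at -0.11, and *Rfc4*, at -0.13, held 0. Over the 6 genes the summed counts were 16394.5 (931 CPM) in control and 10668 (791 CPM) in *Myl3*-KO cells, a log2 ratio of -0.23 (-0.27 to -0.20). *Pcna*, which encodes the ring that tethers polymerases to DNA, had 5851.24 counts (332 CPM) in control and 3653.55 counts (271 CPM) in *Myl3*-KO cells, a ratio of -0.29 (-0.35 to -0.23). A counted pseudogene, *Pcna-ps2*, shares 38.0% of its sequence words, and its counts were not whole. *Rfc5*, a small subunit of the loader, had 1520.07 counts (86.3 CPM) in control and 916.25 counts (68.0 CPM) in *Myl3*-KO cells, a ratio of -0.34 (-0.46 to -0.23). The other small subunits followed at -0.26 for *Rfc4*, -0.24 for *Rfc2* and -0.20 for *Rfc3*. *Rfc1*, the large subunit found only in the canonical loader, had 4694 counts (267 CPM) in control and 3270 counts (243 CPM) in *Myl3*-KO cells, a ratio of -0.14 (-0.20 to -0.071). It was nearest to 0 without the correction, under which it stood at -0.14.

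RPA and the enzymes that finish Okazaki fragments included several of the lower ratios and, before the correction for GC content and length, the highest one. *Rpa3*, the smallest subunit of RPA, had 699 counts (39.7 CPM) in control and 425 counts (31.5 CPM) in *Myl3*-KO cells, a ratio of -0.33 (-0.51 to -0.16). *Rpa2*, the middle subunit, had 1325 counts (75.2 CPM) in control and 826 counts (61.3 CPM) in *Myl3*-KO cells, a ratio of -0.30 (-0.42 to -0.17). Nearer to 0 was *Rpa1*, the large subunit that binds most of the DNA, with 4589 counts (261 CPM) in control and 3150 counts (234 CPM) in *Myl3*-KO cells, a ratio of -0.16 (-0.22 to -0.091). After the correction for GC content and length the RPA subunits lay closer together, with *Rpa1* at -0.18, *Rpa2* at -0.20 and *Rpa3* at -0.23. *Fen1*, the flap endonuclease, was the least abundant member, with 180 counts (10.2 CPM) in control and 107 counts (7.94 CPM) in *Myl3*-KO cells, a ratio of -0.36 (-0.72 to -0.011). Of its sequence words, 82.2% occur in other genes, 80.3% in the antisense gene *Gm10143* alone, and it overlaps *Tmem258* on the opposite strand, so its level is uncertain. *Dna2*, a nuclease and helicase that trims long flaps and shares no such words, had 1017 counts (57.7 CPM) in control and 656 counts (48.7 CPM) in *Myl3*-KO cells, a ratio of -0.25 (-0.39 to -0.10). *Lig1*, which seals the nicks, stood above 0, with 1128 counts (64.0 CPM) in control and 945 counts (70.1 CPM) in *Myl3*-KO cells, a ratio of 0.13 (0.0044 to 0.26). By FPKM its ratio was 0.28, since the length implied by its count and FPKM was 2348 bases in *Myl3*-KO and 2599 in the control, a change of -9.66%. Corrected for GC content and length, its ratio was 0.037 (-0.090 to 0.16). The largest such change in the set after it was 5.52% in *Pold3*.

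RNase H2 removes RNA from DNA, and its 3 subunits were all below 0. *Rnaseh2b* had 351 counts (19.9 CPM) in control and 221 counts (16.4 CPM) in *Myl3*-KO cells, a ratio of -0.28 (-0.53 to -0.035). The ratio was -0.24 (-0.44 to -0.042) for *Rnaseh2c* and -0.15 (-0.28 to -0.021) for the catalytic *Rnaseh2a*. With the correction for GC content and length this order turned, with *Rnaseh2a* at -0.24 (-0.37 to -0.12). The interval of *Rnaseh2c*, at -0.18 (-0.39 to 0.013), then held 0. *Rnaseh1*, a separate enzyme with a mitochondrial role, had 246 counts (14.0 CPM) in control and 177 counts (13.1 CPM) in *Myl3*-KO cells, a ratio of -0.089 (-0.38 to 0.20). *Rnaseh2c* shares 36.1% of its words with the opposite-strand gene *Kat5*. *Ssbp1*, which coats single-stranded mitochondrial DNA and is the only member of the set placed here for mitochondrial replication, had 1662 counts (94.4 CPM) in control and 1132 counts (84.0 CPM) in *Myl3*-KO cells, a ratio of -0.17 (-0.28 to -0.058). After the correction for GC content and length its ratio was -0.067 (-0.18 to 0.043), and that of *Rnaseh1* stood above 0, at 0.028.

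**Figure D3:**
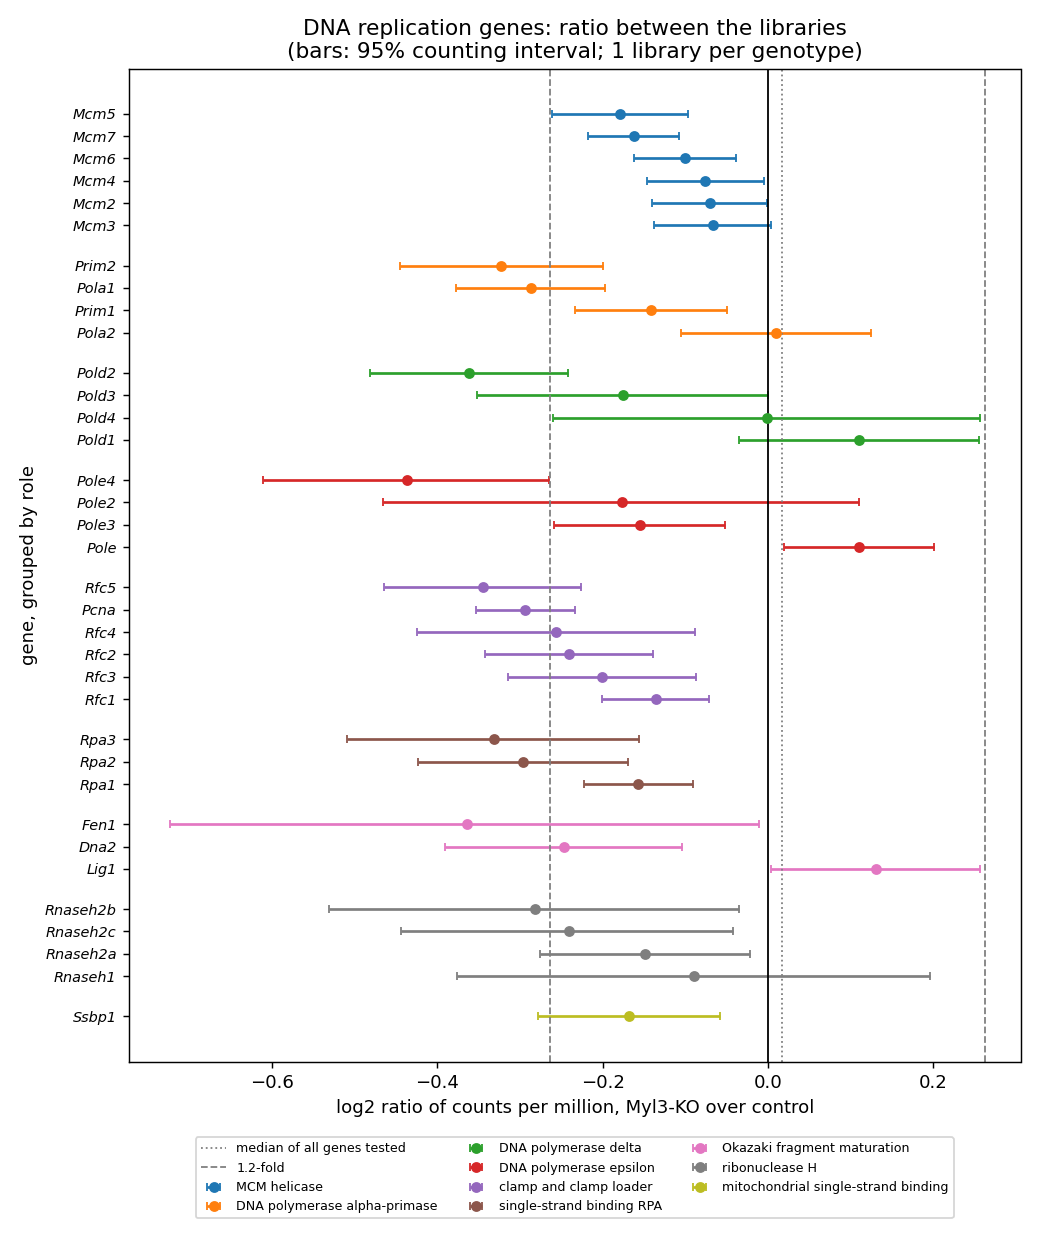
Each point is the log2 ratio of CPM, *Myl3*-KO over control, of 1 replication gene, in groups by role, and each line its 95% counting interval. Points run from -0.44 for *Pole4* to 0.13 for *Lig1*, and the intervals of all 6 clamp and loader genes lie below 0 and those of *Pole* and *Lig1* above it. These are values before the correction for GC content and length, under which 4 of the 6 lie below 0 and none of the 35 above. Before it, 20.1% of all genes tested had an interval below 0 and 22.2% above.

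Subunits of one polymerase did not share one ratio. In polymerase alpha-primase, the large primase subunit *Prim2* had 1423 counts (80.8 CPM) in control and 871 counts (64.6 CPM) in *Myl3*-KO cells, a ratio of -0.32 (-0.45 to -0.20). The catalytic subunit *Pola1* had 2603 counts (148 CPM) in control and 1633 counts (121 CPM) in *Myl3*-KO cells, a ratio of -0.29 (-0.38 to -0.20). Closer to 0 were the primase catalytic subunit *Prim1*, with a ratio of -0.14 (-0.23 to -0.050), and the accessory subunit *Pola2*, which had 1420 counts (80.6 CPM) in control and 1094 counts (81.2 CPM) in *Myl3*-KO cells, a ratio of 0.0097 (-0.11 to 0.12). In polymerase delta, *Pold2* had 1536 counts (87.2 CPM) in control and 915 counts (67.9 CPM) in *Myl3*-KO cells, a ratio of -0.36 (-0.48 to -0.24). Its catalytic subunit *Pold1* had 857 counts (48.7 CPM) in control and 708 counts (52.5 CPM) in *Myl3*-KO cells, a ratio of 0.11 (-0.035 to 0.26). *Pold3* and *Pold4* had ratios of -0.18 (-0.35 to 0.00058) and -0.0010 (-0.26 to 0.26). The intervals of *Pold2* and *Pold1* did not overlap, with or without the correction for GC content and length, under which they stood at -0.40 (-0.52 to -0.28) and -0.055 (-0.20 to 0.090). *Pold4* then stood above 0, at 0.057, and *Prim1* was at -0.069 (-0.16 to 0.023).

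Polymerase epsilon held the lowest ratio of the set before that correction. *Pole4*, on chromosome 6 from 82618992 to 82705365 of GRCm38, encodes a small histone-fold subunit and had 764 counts (43.4 CPM) in control and 432 counts (32.1 CPM) in *Myl3*-KO cells, a ratio of -0.44 (-0.61 to -0.26). Its partner *Pole3* had 1864 counts (106 CPM) in control and 1281 counts (95.04 CPM) in *Myl3*-KO cells, a ratio of -0.16 (-0.26 to -0.052), and *Pole2*, a further accessory subunit, had -0.18 (-0.47 to 0.11). *Pole*, the catalytic subunit, had 2202 counts (125 CPM) in control and 1819 counts (135 CPM) in *Myl3*-KO cells, a ratio of 0.11 (0.020 to 0.20). By FPKM the ratio of *Pole* was 0.043. Over the 3 catalytic DNA polymerase subunits the median ratio was 0.11, and over the other 7 subunits of the 3 polymerases outside the primase it was -0.18, a split made after the values were seen in which *Pola1* did not go with *Pold1* and *Pole*. After a correction for GC content and transcript length, *Pold1* and *Pole* stood below 0, at -0.055 and -0.036, so their direction depended on it. *Pole2* was then at -0.048 and *Pole3* at -0.087.

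Compared per length, levels of the replication genes in the control library ran from 4.42 FPKM for *Fen1* to 219 FPKM for *Pcna*, with a median of 40.9, and in *Myl3*-KO from 3.46 to 179 FPKM, with a median of 33.5. *Pcna* and *Mcm7* led in both libraries. *Mcm7* had 177 FPKM in control and 165 FPKM in *Myl3*-KO cells, whereas the other 5 helicase subunits lay between 59.9 and 99.5 FPKM in the control and between 52.9 and 92.6 in *Myl3*-KO. Within each polymerase, the helicase, the loader and RPA, the highest and the lowest level lay further apart than the 2 libraries did for any member. *Pold2* had 53.7 FPKM in control and 41.2 FPKM in *Myl3*-KO cells, and *Pold1* had 14.35 FPKM in control and 15.6 FPKM in *Myl3*-KO cells, so that the ratio of *Pold2* to *Pold1* was 3.74 in the control and 2.65 in *Myl3*-KO. For *Pole4* to *Pole* it was 1.06 and 0.764, and for *Pola2* to *Pola1* 1.205 and 1.48. The order of *Pole4* and *Pole* by level thus turned between the libraries. For *Lig1* to *Fen1* it was 5.57 and 8.63, with the limits on both genes given above. For *Pcna* to *Rfc1* it was 3.46 and 2.98, and for *Mcm7* to *Mcm5* 2.96 and 3.13.

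**Figure D4:**
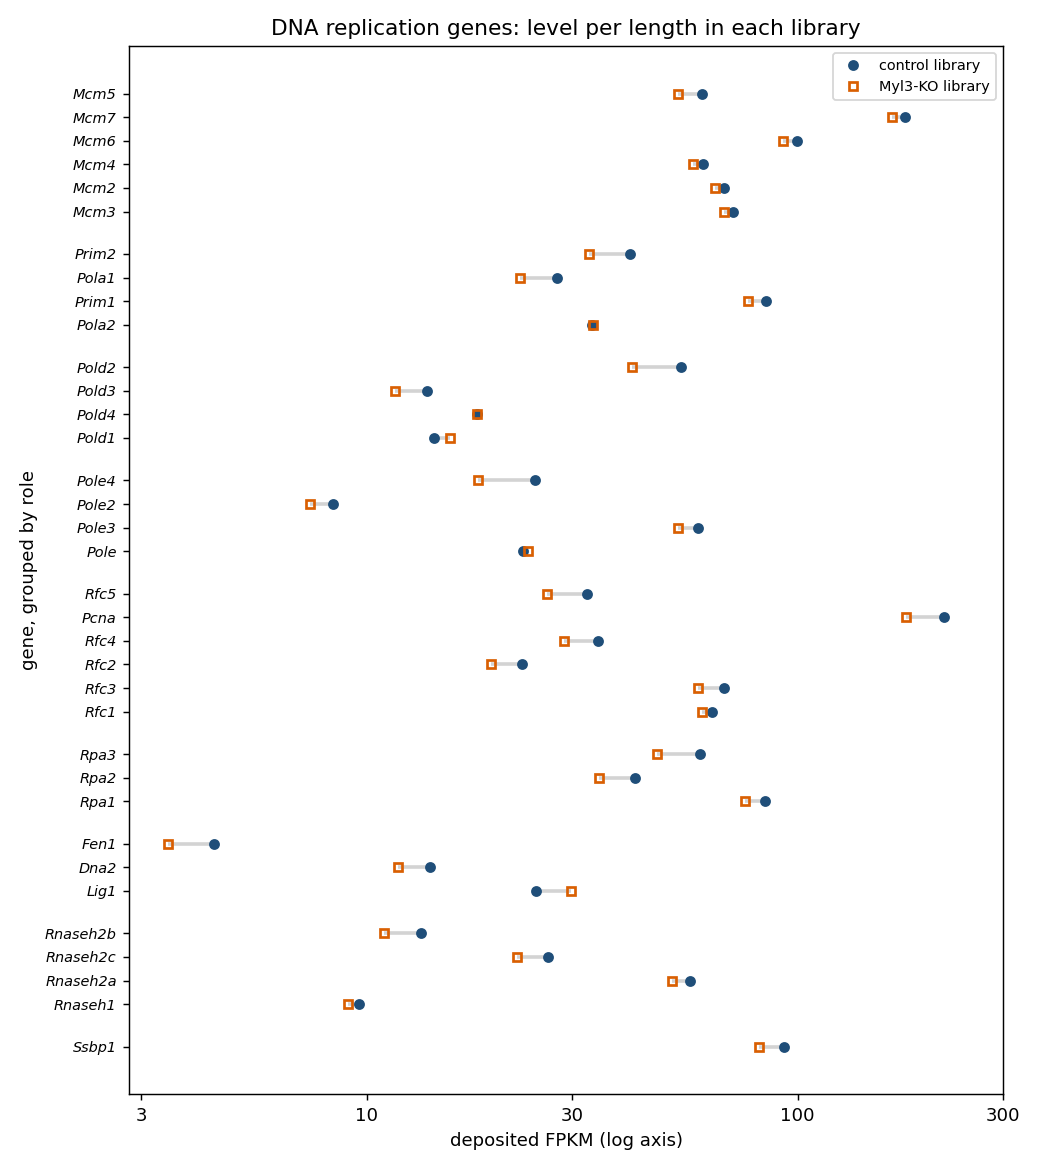
Filled circles give the deposited FPKM of each replication gene in the control library and open squares that in the *Myl3*-KO library, on a log axis, in groups by role. Levels span 4.42 to 219 FPKM in the control, and squares lie right of the circles for *Lig1*, *Pold1*, *Pole* and *Pola2*.

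Beyond their pathway the 35 genes lie on 14 chromosomes and differ in how well their reads can be told apart. Of the 35, 9 overlap a gene of the table, 10 share more than 10% of their 31-base words with other genes, 12 do either and 23 do neither. These counts were not made for all genes. Beside *Fen1*, *Mcm7*, *Pcna* and *Rnaseh2c*, the share of such words was 29.2% in *Pold4*, 23.1% in *Rnaseh2a*, 22.9% in *Rfc2*, 16.3% in *Rfc5*, 12.8% in *Pole2* and 12.5% in *Rfc4*. *Lig1* overlaps *Zswim9* and *Rnaseh2b* overlaps *Dleu7*, which had 0 counts. Without those 12, the median ratio was -0.16 and 6 of 23 genes were at least 1.2-fold lower, against 13.04% of 12419 genes. This exclusion was chosen after seeing the data. GC content and length were taken from the longest transcript of each gene, and GC content ran from 34.2% in *Rpa3* to 61.0% in *Pold1*. For some members that transcript is longer than the length implied by count and FPKM in the control. It has 4398 against 1012 bases for *Ssbp1* and 4983 against 1494 for *Rnaseh2b*, whereas *Mcm4* has 3589 in both. The correction was not repeated with the implied length. Across the 35 genes, which share both libraries, the log2 ratio went with GC content at a Pearson r of 0.34 and a Spearman rho of 0.28, and with transcript length at 0.32 and 0.31. Across 12199 genes tested, the values for GC content were 0.17 and 0.24. After the correction for both, the median of the 35 genes was -0.16, 31 were still below 0, and 8 were at least 1.2-fold lower, against 11.8% of all genes corrected. Those 8 include *Rfc2* and *Dna2*, whereas *Prim2* at -0.19, *Pcna* at -0.165, *Rpa2* at -0.20 and *Rpa3* at -0.23 were then inside the limit.

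Many replication genes are annotated to DNA repair too. Nucleotide excision repair holds 18 of them, with a median of -0.19 beside -0.073 for its 25 other genes, and mismatch repair holds 15, with -0.20 beside -0.12 for its 8 others. Base excision repair holds 11, with -0.18 beside -0.00031 for its 20 others. Homologous recombination holds 8, with -0.17 beside -0.13 for its 31 others. The 20 members in any repair pathway had a median of -0.19 and the 15 in none -0.15. The cell cycle pathway holds 7 members, the helicase and *Pcna*, with a median of -0.10 beside -0.11 for its 111 other genes tested. Pyrimidine metabolism holds 12, with -0.165 beside -0.179 for its 76 others. Purine metabolism holds 12 as well, with -0.165 beside -0.095 for its 122 others.

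Genes that act before and around the fork were described by lists written from general knowledge, whose counts stand beside 13.1% of all genes tested at least 1.2-fold lower and 19.1% at least 1.2-fold higher. For origin licensing, 10 of 10 genes were below 0 with a median of -0.18, and 3 were at least 1.2-fold lower and 0 higher. *Gmnn*, which encodes geminin, the inhibitor of CDT1, had 757 counts (43.0 CPM) in control and 416 counts (30.9 CPM) in *Myl3*-KO cells, a ratio of -0.48 (-0.65 to -0.30), whereas *Cdt1* had 901 counts (51.2 CPM) in control and 661 counts (49.0 CPM) in *Myl3*-KO cells, a ratio of -0.061 (-0.21 to 0.086). Of the origin recognition complex, *Orc6* had a ratio of -0.36 (-0.47 to -0.25) and *Orc2* of -0.26 (-0.37 to -0.15). In this list geminin was lowest, and the counting interval held 0 for 4 of the 10 genes, *Cdt1* among them. Of 19 origin firing and fork factors, 16 were below 0, with a median of -0.22, and 7 were at least 1.2-fold lower and 0 higher. *Tipin*, part of the fork protection complex, had a ratio of -0.34 (-0.44 to -0.24), and *Topbp1*, which helps to fire origins, had -0.11 (-0.17 to -0.037). The MCM paralogues, which are not in the ring, differed in sign, with *Mcm8* at -0.42 (-0.68 to -0.17) and *Mcm9* at 0.16 (-0.047 to 0.35). By FPKM *Mcm9* went the other way, from 17.7 in the control to 7.47 in *Myl3*-KO.

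The genes of nucleotide supply had a median of -0.33, with 10 of 10 genes below 0. Of these, 6 (against 13.1% of all genes tested) were at least 1.2-fold lower and 0 (against 19.1%) higher. The median was -0.27 by FPKM and -0.27 over the genes with whole counts. *Tyms*, thymidylate synthase, had 1928 counts (109 CPM) in control and 1024 counts (76.0 CPM) in *Myl3*-KO cells, a ratio of -0.53 (-0.64 to -0.42). By FPKM its difference was smaller, with 51.9 in the control and 43.2 in *Myl3*-KO. *Rrm1*, the large subunit of ribonucleotide reductase, had a ratio of -0.28 (-0.34 to -0.22), and *Nme1*, a nucleoside diphosphate kinase, had -0.45 (-0.52 to -0.37). *Rrm2b*, the reductase subunit used outside S phase, had -0.17 (-0.45 to 0.10). By FPKM *Rrm2b* went the other way, from 3.45 in the control to 3.66 in *Myl3*-KO. Of 11 genes of replication-coupled chromatin assembly, 5 were at least 1.2-fold lower and 0 higher, against the same shares. Their median was -0.10. It was -0.32 over the genes with whole counts only and -0.21 after the correction for GC content and length. *Hells*, a chromatin remodeller, had a ratio of -0.42 (-0.49 to -0.34), whereas *Dnmt1*, the maintenance DNA methyltransferase, had 4981 counts (283 CPM) in control and 4085 counts (303 CPM) in *Myl3*-KO cells, a ratio of 0.10 (0.040 to 0.16). *Rbbp7* and *Rbbp4*, histone chaperones, had ratios of -0.072 and -0.057. The median of the 5 genes of alternative clamp loaders and the unloader was -0.16, with 0 past 1.2-fold either way, against the same shares. Their ratios ran from -0.24 for *Dscc1* and -0.23 for *Rad17* through -0.081 for *Chtf8* to 0.14 for *Chtf18*.

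Regulators of the cycle differed among themselves. The 13 genes of the E2F and RB family had a median of -0.047, which correcting for GC content and length moved to -0.090. Of them, 1 (against 13.1% of all genes tested) was at least 1.2-fold lower and 1 (against 19.1%) higher. *Tfdp1*, the main partner of E2F proteins, had a ratio of -0.24 (-0.29 to -0.18), *E2f3* of -0.047 (-0.13 to 0.039) and *E2f5* of -0.28 (-0.62 to 0.051), whereas *Rbl2*, the RB-family repressor p130, had 814 counts (46.2 CPM) in control and 752 counts (55.8 CPM) in *Myl3*-KO cells, a ratio of 0.27 (0.13 to 0.42). Of 11 G1/S cyclins and kinases, with a median of -0.23, 5 were at least 1.2-fold lower and 2 higher, against the same shares. By FPKM the median was -0.12. *Ccne2*, a cyclin of S phase entry, had 2146 counts (122 CPM) in control and 1101 counts (81.7 CPM) in *Myl3*-KO cells, a ratio of -0.58 (-0.68 to -0.47), and *Ccna2* had -0.33 (-0.40 to -0.27). *Ccnd1* went the other way, with 136.14 counts (7.73 CPM) in control and 221.72 counts (16.5 CPM) in *Myl3*-KO cells, a ratio of 1.09 (0.78 to 1.41). *Cdk4* had a ratio of -0.11 (-0.15 to -0.079).

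All 20 G2/M genes were below 0, with a median of -0.29, and 12 (against 13.1% of all genes) were at least 1.2-fold lower and 0 (against 19.1%) higher. *Cdk1*, the mitotic kinase, had 4417 counts (251 CPM) in control and 2360 counts (175 CPM) in *Myl3*-KO cells, a ratio of -0.52 (-0.59 to -0.45), and *Top2a*, topoisomerase II alpha, had -0.34 (-0.38 to -0.31). *Mki67*, a marker of cycling cells, had 7698 counts (437 CPM) in control and 5796 counts (430.0 CPM) in *Myl3*-KO cells, a ratio of -0.023 (-0.073 to 0.026). The median of the 7 cell cycle inhibitors was -0.044, with 2 at least 1.2-fold lower and 0 higher, against the same shares, and 0.011 after the correction for GC content and length. *Cdkn2a*, which encodes p16 and p19, had 8647 counts (491 CPM) in control and 6417 counts (476 CPM) in *Myl3*-KO cells, a ratio of -0.044 (-0.091 to 0.0024), *Cdkn1b* had 0.068 (-0.0020 to 0.14), *Cdkn2d* had -0.34 (-0.57 to -0.11) and *Cdkn1c* had 0.22 (-0.25 to 0.69). These lists differ in size and abundance, and the differences between their medians were not tested.

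**Figure D5:**
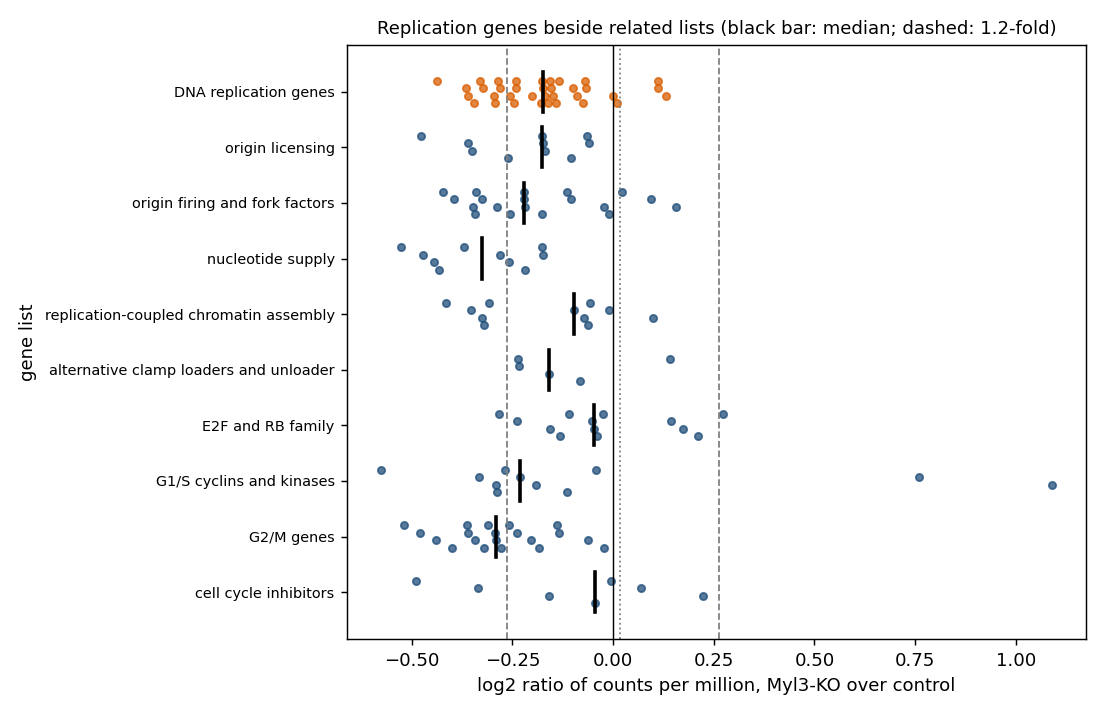
Each dot is the log2 ratio of CPM, *Myl3*-KO over control, of 1 gene, for the 35 replication genes and 9 related lists, and black bars are medians. The dotted line is the median of all genes tested, 0.02, and dashed lines mark 1.2-fold. All dots of the licensing, nucleotide supply and G2/M lists lie below 0, and *Ccnd1* lies furthest to the right at 1.09.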

How the data were processed

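RNA of primary chondrocytes was sequenced in 1 control and 1 *Myl3*-KO library. Library preparation is described as oligo bead enrichment with random priming in the methods of the study and as a SMARTER kit in the labels. The authors deposited expected counts and FPKM values per gene, on GRCm38 (mm10) per the labels, while the aligner, the counting tool and the use of strand are not given in the sources used here. The table heads the control column NC, which was read as control since its neighbour is headed KO. The members and lists were chosen with earlier results of these data known.

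The ratio of a gene was the log2 ratio of expected counts divided by the library total, with a floor of 3 counts, for the 12431 of 22156 genes with 10 counts or more in all. Intervals were 95% Clopper-Pearson intervals of rounded counts. They cover counting error only, so they give no precision for a genotype. With 1 library per group no test was run. Alternatives were TMM (edgeR 4.0.16) and DESeq2 1.42.0 factors used as scaling only, centring, other filters, 1 added count, FPKM ratios, whole counts only, a correction by 10 bins of GC content and 5 of length, and, chosen after seeing the data, leaving out members with ambiguous reads. Gene positions, overlaps, GC content, length and 31-base words came from GENCODE M21 on GRCm38, and promoters from RefSeq on GRCm38.p6. GC content, length and words were those of the longest transcript of each gene. The planned search of protein sequences was not run. Genes named outside the pathway were the 2 most abundant and the highest and lowest ratios with at least 100 counts of each list, and the leading or absent markers of each cell type. The ratio and its interval were tested on simulated data. Python 3.11.15, pandas 2.3.3, scipy 1.17.1, matplotlib 3.10.9 and R 4.3.3 were used.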

Additional observations from a re-analysis of the deposited data

How the results depend on the processing

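The median log2 ratio of the 35 replication genes stayed below 0 in each of 11 alternatives, between -0.193 and -0.155. It was -0.193 with TMM factors, -0.192 with DESeq2 size factors or centring on all genes, -0.155 with the correction for GC content and length, and -0.157 without the 12 members with ambiguous reads. That last exclusion left 6 of 23 genes at least 1.2-fold lower, against 13.04% of 12419 genes. It left 17 of the 23 with an interval below 0. Over the other alternatives 8 to 12 genes were at least 1.2-fold lower, against 10.7% to 14.5% of all genes. The genes with an interval above 0 numbered 1 with TMM factors, DESeq2 size factors, centring, FPKM ratios or that exclusion, and 0 with the GC and length correction. With FPKM ratios 1 gene, *Lig1*, was at least 1.2-fold higher. The summed MCM ratio was -0.138 with the GC and length correction, and had no value where only whole counts were kept or ambiguous members left out, since *Mcm7* was then missing. The cause of these shifts was not tested. Of the values of single genes and related lists, 449 moved by no more than their counting interval reaches to either side, and 16 moved further. For a list this was the interval of its summed counts. By the same rule the median of the 35 genes moved further in 5 of the 11 alternatives. No paired analysis was possible because each genotype has 1 library, which is also why no library could be left out. The depth sets the counting interval of each ratio, which among the 35 genes is widest for *Fen1*.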
